A study of Xenopus laevis with 115 samples.

Results

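These 200 transcripts were abundant in the endoderm that supplied donor nuclei and had medians under 1 CPM (estimated reads of a target per 1000000 reads of its library) in ectoderm of one set of experiments, both after fertilisation and after nuclear transfer. They were picked from 70042 messenger RNA targets of the clawed frog Xenopus laevis by their measured levels. The median over 6 control donor libraries had to reach 20 CPM. The medians over 11 libraries of fertilised ectoderm and over 12 libraries of control nuclear-transfer ectoderm both had to lie under 1 CPM. Of the 6853 targets that reached the donor limit, 265 were under 1 CPM in fertilised ectoderm. Of those, 230 were also under 1 CPM after nuclear transfer, and 35 were not. The 200 with the highest donor medians are the members, and these chosen levels are a description of the rule, not a result.

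In nuclear transfer, the nucleus of a differentiated cell is placed in an egg, whose cytoplasm resets it to an embryonic programme. Resetting is often incomplete: genes active in the donor cell can stay active in the wrong cell type of the new embryo, which is called ON-memory. Endoderm is the yolky inner germ layer that forms gut, liver and pancreas, whereas ectoderm forms skin and nervous system. The acetyltransferases p300 and CBP put acetyl groups on histones at active genes. SGC-CBP30 blocks the bromodomain of p300 and CBP, with which they read acetylated histones, and A-485 blocks their catalytic site.

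The groups come from 2 sets of experiments, each run 3 times, with poly(A) RNA from tissue of wild-type genotype. Donor endoderm was taken at stage 18 from embryos kept from stage 12 in DMSO or in 40 µM SGC-CBP30 (the CBP30 set), or in 30 µM A-485 or in A486 (the A485 set). A486 is used as the control of A-485, and the records do not describe it further. Ectoderm, dissected as animal caps, was taken at stage 11 from embryos made with such nuclei (NT) or by in vitro fertilisation (IVF). The records describe inhibitor treatment of the donor embryos only. The CBP30 set holds 6 Donor_DMSO, 5 Donor_CBP30, 11 IVF, 12 NT_DMSO and 11 NT_CBP30 libraries, and the A485 set holds 6 Donor_A486, 6 Donor_A485, 4 IVF, 13 NT_A486 and 11 NT_A485 libraries, counting those analysed here. Libraries are written as experiment and library number, so that 3.5 is library 5 of experiment 3. The labels do not say whether a library is 1 embryo, and all p-values measure the spread between libraries only.

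Library totals ran from 10352221 to 24923622 counts in the CBP30 set and from 6468976 to 24820727 in the A485 set. A count of 3 therefore stood for 0.12 to 0.464 CPM, and member values under that size are counting noise. The A485 set lists 121 of the 200 members, and only 15 of these have the same target length in both sets, so a shared identifier often means a different counted sequence. The tissue fields of Donor_A485 library 3.1 and NT_A485 library 3.1 contradict their titles. Both were grouped by title, with member sums of 22254 and 133.5 CPM. The files and the reference table do not pair these identifiers with gene symbols. No gene names, sequences or marker genes of endoderm could therefore be set beside the members, and the label endoderm rests on the sample records. The targets of the members had a median length of 1926.5 bases. The median was 2028 bases for the 6853 targets that reached the donor limit, and 888 bases for all messenger RNA targets. In bulk tissue, fewer cells with a transcript and less transcript per cell cannot be told apart.

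In donor endoderm the members were a visible part of the message. Their summed level was 10572 to 33442 CPM in the 6 Donor_DMSO libraries, or 1.06 to 3.34% of all counts. The 2 libraries of experiment 1 were the lowest, at 15487 and 10572 CPM, and the other 4 lay between 28187 and 33442 CPM. XBmRNA64125 had the highest median at 920.3 CPM, with 398.2, 334.6, 1145.5, 981.9, 858.7 and 1024.0 CPM in the 6 libraries in order of experiment. XBmRNA35805 followed at 857.2 CPM, with a range of 255.1 to 1145.5 CPM. Per length, XBmRNA64125 stood at a median of 780.3 TPM (reads per target length, scaled to the library) and XBmRNA35805 at 276.6 TPM, so the order by CPM overstates the longer of the pair. The last members inside the limit were XBmRNA67310 and XBmRNA56313 at 23.5 and 23.4 CPM, and the first outside were XBmRNA50195 and XBmRNA66302 at 23.3 and 23.2 CPM. The edge of the list is thus a small step in level.

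In ectoderm the same 200 transcripts together summed to 49.1 to 96.5 CPM in IVF, with a median of 69.1 CPM. The NT_DMSO sums were 53.8 to 122.4 CPM in 11 of the 12 libraries. The 12th library, 3.5, stood at 1186 CPM. The NT_CBP30 sums were 62.8 to 119.8 CPM, with a median of 74.2 CPM. As medians these are 0.239, 0.26 and 0.256% of the Donor_DMSO sum for IVF, NT_DMSO and NT_CBP30. Apart from library 3.5, the NT ranges overlapped the IVF range. XBmRNA64125 was at 0.532 to 1.21 CPM in the 11 IVF libraries and at 0.583 to 1.28 CPM in the 12 NT_DMSO libraries, a narrow band close to 1 CPM in both.

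Low values of the members were found in all ectoderm groups of the CBP30 set. No member was at 0 reads in every one of the 34 ectoderm libraries, and 16 members never had more than 3 reads in any of them. The IVF median as a share of the Donor_DMSO median was 0.193% for the median member and 3.18% at most. Across the 200 members the IVF median had a Spearman correlation of 0.84 with the NT_CBP30 median and of 0.13 with the Donor_DMSO median. These are descriptions over targets that share their target sequences, and the rule limited the IVF and donor medians, so nothing is read from them. XBmRNA35805, second in the donors, was under 1 CPM in every ectoderm library of both sets, with a highest value of 0.94 CPM.

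In the A485 set the sum of the 121 listed members was 12631 to 23020 CPM in Donor_A486 and 16240 to 22254 CPM in Donor_A485. In ectoderm it was 128.9 to 247.4 CPM in IVF, 79.3 to 139.2 CPM in NT_A486 and 68.3 to 209.1 CPM in NT_A485. As medians these were 0.872, 0.535 and 0.601% of the Donor_A486 median. Over all experiments the ranges of both NT groups overlapped that of the 4 IVF libraries analysed here, which come from experiment 1. Within experiment 1, the NT_A486 libraries lay at 87.9 to 122.7 CPM, below all 4 IVF libraries. The NT_A485 libraries of that experiment, at 122.6 to 209.1 CPM, overlapped the IVF range. These differences were not tested.

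**Figure D1:**
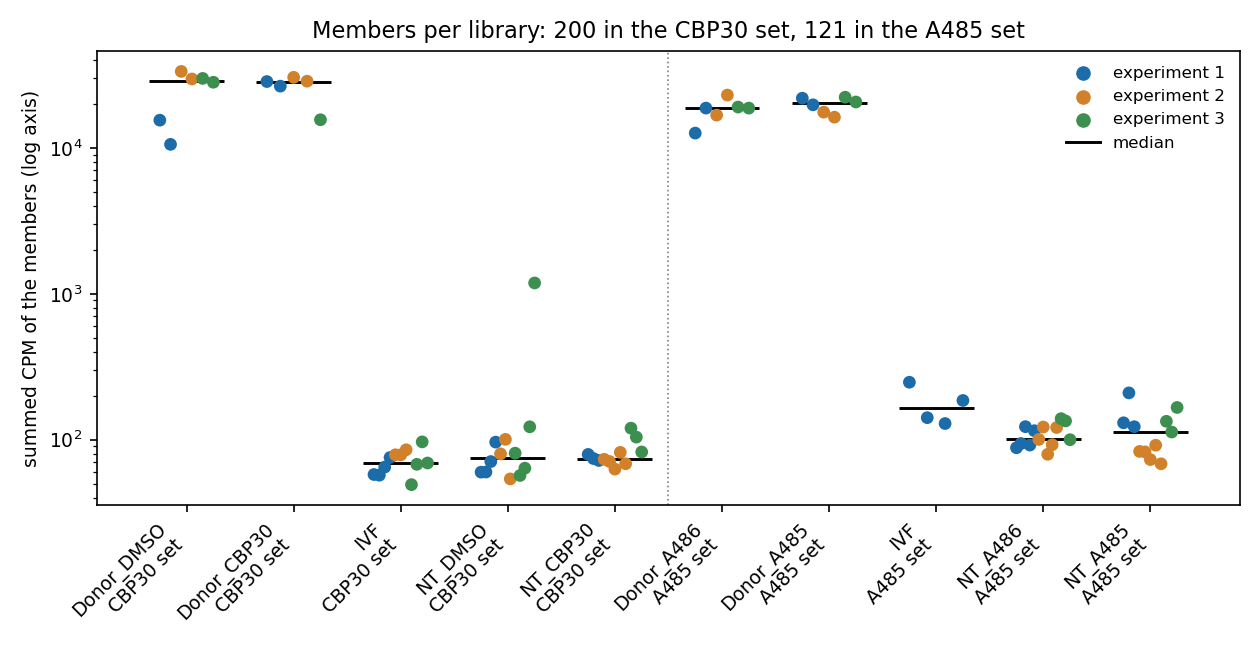
Summed CPM of the members in each library (log axis), by group and set, with colours for the experiment and a line at the median. Donor libraries lie at 10572 CPM or above, ectoderm libraries lie between 49.1 and 247.4 CPM, and 1 NT_DMSO library stands apart at 1186 CPM.

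Library 3.5 of NT_DMSO was the one ectoderm library in which endoderm transcripts came through in number. A transcript counted as leaking in a library when it reached 5 CPM, and a library as leaky when at least 10 members did. In library 3.5, 31 members reached 5 CPM and 78 reached 1 CPM. The other 11 NT_DMSO libraries held 0 to 2 members at 5 CPM and 7 to 36 at 1 CPM. All 31 leaking members were higher in library 3.5 than in each of the other 33 ectoderm libraries of the set. Of the 36 leaks in NT_DMSO, 31 were in library 3.5, and without it the group had 5 leaks and no leaky library. Library 3.5 entered the rule as 1 of the 12 libraries behind the NT median.

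The strongest leak was XBmRNA49114. It stood at 186.2 CPM in library 3.5, above the 86.5 and 70.3 CPM of the 2 Donor_DMSO libraries of the same experiment, and thus at 237.5% of their mean. The other 11 NT_DMSO libraries had a median of 0.676 CPM and a highest value of 7.6 CPM. XBmRNA79967 reached 100.2 CPM there, 51.6% of the donors of experiment 3, against 5.31 CPM at most in the other 11. In all, 6 members were at or above the donor level of experiment 3 and 32 were at or above 10% of it, whereas 117 members were under 1% of it. Among the 32, XBmRNA6801 reached 86.0% on 0.195 CPM against a donor mean of 0.226 CPM, both near the counting limit. The median member stood at 0.609% and the quartiles at 0.12 and 3.42%. The leak was therefore uneven from transcript to transcript.

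Leaking and low members were found at all donor levels of the list. Across the 200 members the Spearman correlation of the level in library 3.5 with the Donor_DMSO median was 0.09, a description in which the rule had limited the donor median and used library 3.5 for the NT limit. Of the 31 members highest in the donor, 4 reached 5 CPM, beside 31 of all 200. XBmRNA64125, first by donor level, was at 0.583 CPM in library 3.5, below its median of 0.88 CPM in the other 11 libraries. The 5 highest leaks made up 45.9% of the member sum of the library.

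The library differed from its group beyond the members too. The 35 endoderm transcripts that did not meet the NT limit summed to 2785 CPM in library 3.5 and to 43.1 to 242.3 CPM in the other 11. Counting targets at least 4 times as high as the median of the other 11 libraries, with 1 CPM added to both, 553 messenger RNA targets were raised in library 3.5. The same count for each other NT_DMSO library gave 58 to 232. By the same measure, 149 targets were at least 4 times as low in library 3.5, which was not counted for the other 11. Of the 553 raised targets, 33 were members, 199 had a donor median of at least 20 CPM and 141 had a donor median under 1 CPM. Among all 70042 messenger RNA targets, 6853 had a donor median of at least 20 CPM. The raised targets thus included transcripts abundant in the donor and others that were low there. The whole table also holds targets too low to count as raised, and the same share was not counted for the other 11 libraries. No excess of donor transcripts is therefore read from these shares.

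**Figure D2:**
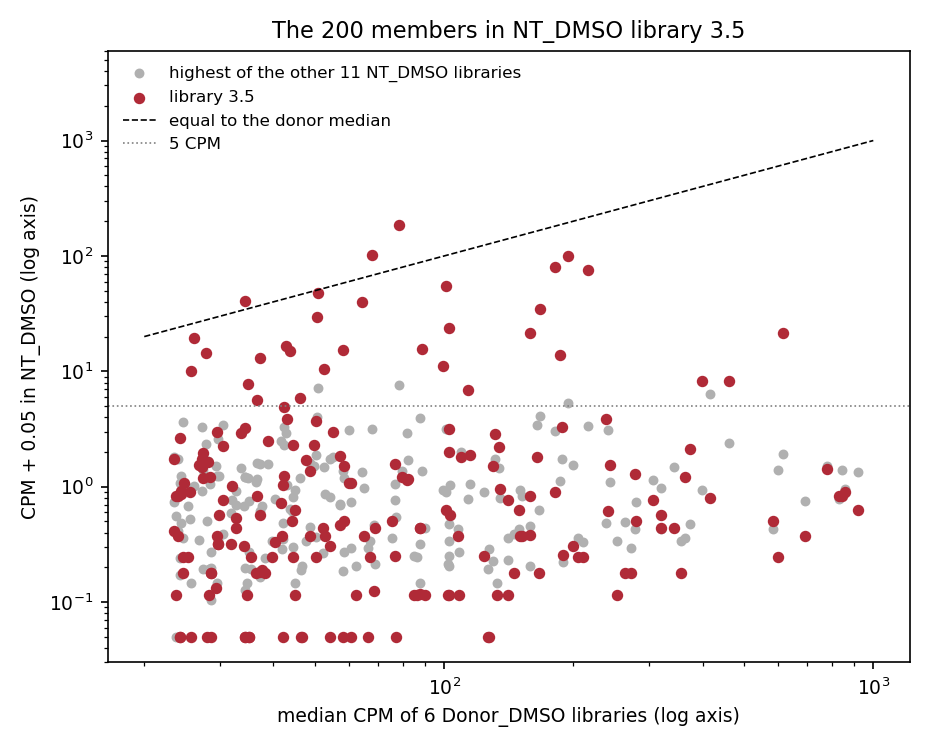
CPM with 0.05 added (log axis) of each of the 200 members in NT_DMSO library 3.5 (red) and its highest value in the other 11 NT_DMSO libraries (grey), against the Donor_DMSO median (log axis). The red points above the dotted line at 5 CPM are the 31 leaking members, and 4 of the 31 members highest in the donor are among them. The dashed line marks equality with the median of all 6 Donor_DMSO libraries. The donor level of experiment 3, which 6 members reach, is not drawn.

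Some of the leaking members reached 5 CPM, at a much lower level than in library 3.5, in a few other libraries. XBmRNA49114 was at 7.6 CPM in NT_DMSO library 2.2 and at 7.55 CPM in library 3.4, besides library 3.5. The highest value in IVF was 4.76 CPM and the highest in NT_CBP30 was 2.94 CPM. In the A485 set the same identifier reached 15.4 and 7.12 CPM in NT_A485 libraries 1.2 and 3.3. It reached 6.04 and 5.39 CPM in NT_A486 libraries 2.5 and 3.1, and at most 0.211 CPM in the 4 IVF libraries. Most NT libraries of both sets stayed low: the medians were 0.985 CPM in NT_DMSO, 0.798 CPM in NT_CBP30, 0.773 CPM in NT_A485 and 0.401 CPM in NT_A486. The IVF libraries of the A485 set analysed here are from experiment 1, so the high NT libraries of experiments 2 and 3 have none of their own experiment beside them here.

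The 31 leaking members as a group showed the same scatter. Their sum was 6.03 to 34.3 CPM in IVF, 7.06 to 48.7 CPM in the other 11 NT_DMSO libraries and 9.49 to 27.7 CPM in NT_CBP30. The A485 set lists 22 of them. There the sum was 7.92 to 90.7 CPM in NT_A485, 5.98 to 41.0 CPM in NT_A486 and 7.61 to 17.4 CPM in IVF. In NT_A485, library 1.2 held 4 of the 22 at 5 CPM and library 3.3 held 5, and the other 9 held 0. In NT_A486, 4 of 13 libraries held 1 or 2, and in IVF 2 of 4 libraries held 1 each. The list was chosen on library 3.5, so its values elsewhere are given as a description.

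By the limit of 10 members no library of NT_CBP30, NT_A485, NT_A486 or either IVF group was leaky. The A485 set lists only 121 of the 200 members, so the same limit of 10 is a larger share of the list and harder to reach there. The highest number of members at 5 CPM was 3 in NT_CBP30 (library 3.1), 8 in NT_A485 (library 3.3), 5 in NT_A486 and 8 in the IVF libraries of the A485 set. Leaks numbered 6 in NT_CBP30, 44 in NT_A485, 46 in NT_A486 and 27 in the 4 IVF libraries of the A485 set, against 2 in IVF of the CBP30 set. Most of the leaks in NT_A486 and NT_A485 were of transcripts that fertilised ectoderm held as well, so their numbers are not comparable with the 6 in NT_CBP30. XBmRNA56259 and XBmRNA78259 were above 5 CPM in 13 and 12 of 13 NT_A486 libraries, and in 11 and 10 of 11 NT_A485 libraries. They were above it in 4 and 3 of the 4 IVF libraries. XBmRNA6832 had medians of 7.7 CPM in NT_A486, 7.1 CPM in NT_A485 and 6.1 CPM in IVF. XBmRNA78259 had medians of 7.17 CPM in NT_A486, 8.01 CPM in NT_A485 and 6.41 CPM in IVF, against 0.195 CPM in NT_DMSO. Its counted target was 5073 bases long in the A485 set and 1842 bases in the CBP30 set. XBmRNA56259 had medians of 27.5 CPM in NT_A486 and 0.244 CPM in NT_DMSO, on counted targets of 2171 and 607 bases.

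The members were also low in the nuclear-transfer groups that the rule did not use. In NT_CBP30, 194 of the 200 members had a median under 1 CPM, and the highest median was 2.87 CPM. Of the 30 targets that met the rule but fell outside the 200, 27 were under 1 CPM there, and 6 of the 35 transcripts that missed the NT limit were. All of these were sorted by IVF and NT_DMSO levels of the same set. The share over all 6853 targets that reached the donor limit is not given here, so nothing is read from the 194. A total of 191 members were called lower in NT_CBP30 than in Donor_CBP30 by edgeR's quasi-likelihood test at an adjusted p under 0.05, of 192 that passed the filter on low counts. Of all 27546 targets tested, 33.0% were called lower. The members passed that filter through the donor libraries, so the call was bound to follow and the count is given only to account for them. The median log2 fold change of the 192 was -9.06, against 0.16 for all targets tested. XBmRNA17720, the member with the smallest adjusted p, was at 240.4 to 558.3 CPM in the 5 Donor_CBP30 libraries and at 0.0465 to 0.275 CPM in the 11 NT_CBP30 libraries. The groups did not overlap, and the difference was -12.30 on the log2 scale (SE 0.21, adjusted p 6.15e-18). A count of 3 stood for 0.132 to 0.223 CPM in NT_CBP30, so the size of that difference rests on values near the counting limit.

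In the A485 set, 96 of the 121 listed members had a Donor_A486 median of at least 20 CPM, and 80 of these 96 had an NT_A486 median under 1 CPM. Of all 6383 messenger RNA targets with such a donor level in that set, 197 (3.09%) had an NT_A486 median under 1 CPM. The members had been picked for low IVF and NT_DMSO levels in the CBP30 set, and the 6383 had not. The 6383 also include the 96, so nothing is read from the contrast. Among the 15 members of equal length in both sets, all 15 met the donor limit and 14 met the NT limit. Against Donor_A486, 118 of the 119 members that passed the filter were called lower in NT_A486, beside 34.4% of 22718 targets tested. Here too the members passed through the donor libraries. XBmRNA72496 had the smallest adjusted p, with 105.1 to 248.4 CPM in Donor_A486 and 0.103 to 0.337 CPM in NT_A486. The groups did not overlap, and the log2 difference was -10.45 (SE 0.22, adjusted p 4.11e-19). These NT_A486 values too are near the counting limit, so the size is uncertain. Against IVF within experiment 1, 113 of 118 members tested were called higher in Donor_A486, beside 24.6% of 22089 targets, and 1 was called lower. The members again passed the filter through the donor libraries, so nothing is read from the higher count. XBmRNA1774 and XBmRNA42710 shared the smallest adjusted p among the higher ones, 1.54e-06, with log2 differences of 11.79 and 10.79. XBmRNA1774 was at 0.0703 to 0.147 CPM in IVF, under the 0.181 to 0.264 CPM of 3 counts there. XBmRNA42710 had an IVF median of 0.0719 CPM, so the size of both differences is uncertain. The lower member was XBmRNA56259, at 4.17 and 7.8 CPM in the 2 donors and at 24.6 to 67.9 CPM in the 4 IVF libraries (log2 fold change -1.99, SE 0.61, adjusted p 0.0315). The call was lost when either donor library was left out. The counted target of XBmRNA56259 was 2171 bases long in the A485 set and 607 bases in the CBP30 set.

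**Figure D3:**
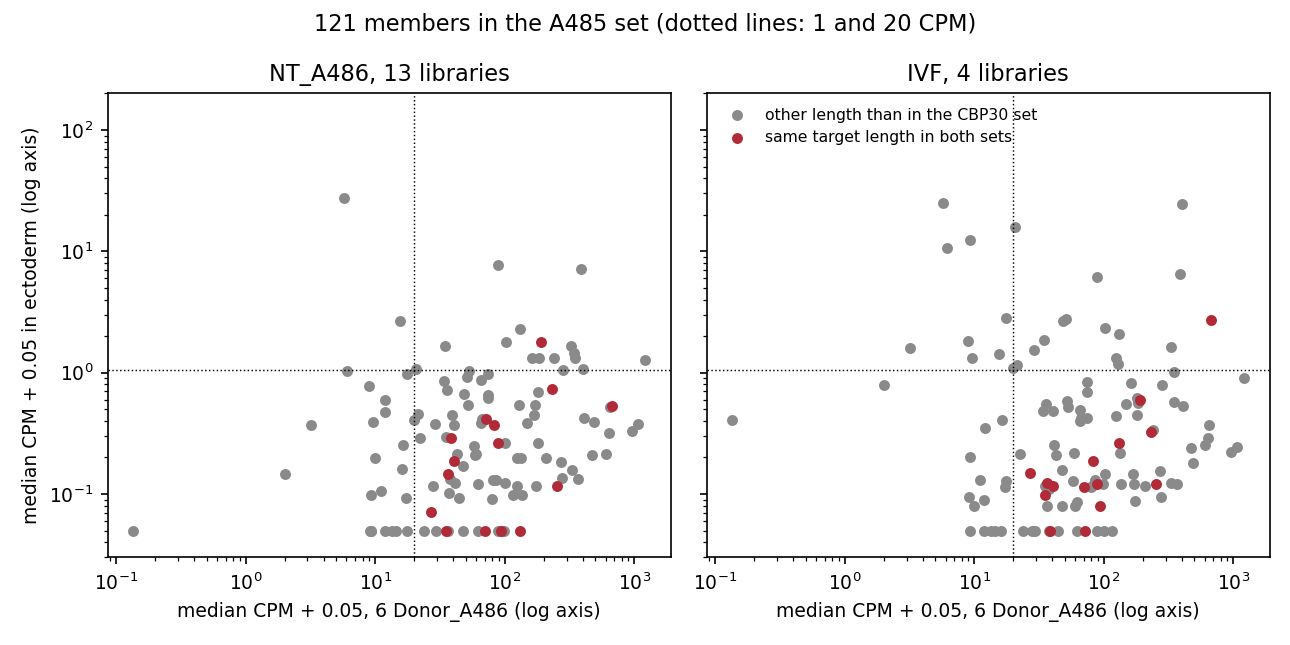
Medians of the 121 listed members in Donor_A486 against NT_A486 (left) and IVF (right) of the A485 set, in CPM with 0.05 added (log axes), with red points for the 15 members of equal target length in both sets. Most points lie right of 20 CPM and below 1 CPM; the grey points far above 1 CPM include XBmRNA56259 and, in IVF, XBmRNA78242.

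In fits over all experiments, no member was called different between inhibitor and control in nuclear-transfer ectoderm, where most members did not pass the filter on low counts. The rule used the NT_DMSO levels, so NT_CBP30 against NT_DMSO is a description. There 48 of the 200 members passed the filter and 0 were called by edgeR, beside 0.0% of 25668 targets. At an unadjusted p under 0.05 edgeR gave 11 of the 48, which became 1 of 45 without library 3.5. DESeq2 called 0 members, beside 8 higher and 5 lower of the same targets, and gave 3 members at an unadjusted p under 0.05. For XBmRNA49114 the log2 difference was -4.05 (SE 1.19, adjusted p 0.821, and 0.575 to 1 over the alternatives). Its NT_DMSO mean of 17.6 ± 53.2 CPM (SD, n = 12) became 2.29 CPM without library 3.5. Between NT_A485 and NT_A486, 0 of 30 members were called, beside 0.0339% of 20667 targets. There edgeR and DESeq2 each gave 3 members at an unadjusted p under 0.05. Within experiment 2 alone, edgeR called 1 of 21 members, lower in NT_A485, beside 45 of 20382 targets called lower. A missed threshold does not show that the groups were alike.

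XBmRNA45444 was the member with the most NT_CBP30 libraries at 5 CPM. It stood at 6.14, 5.86 and 5.63 CPM in libraries 1.2, 2.1 and 2.5, and its range over the 11 libraries was 0.197 to 6.14 CPM around a median of 2.87 CPM. The 12 NT_DMSO libraries lay between 0.327 and 1.96 CPM and the 11 IVF libraries between 0 and 0.707 CPM. NT_CBP30 differed from NT_DMSO by 1.5 on the log2 scale (SE 0.44, adjusted p 0.821), with an adjusted p of 0.244 to 1 over the alternatives. In the A485 set it was at 0.98 to 6.23 CPM in NT_A485, at 0.883 to 8.98 CPM in NT_A486 and at 0.298 to 0.913 CPM in IVF. All NT libraries of that set but library 1.2 of NT_A486 were thus above all 4 IVF libraries. Within experiment 1, the only one with IVF libraries analysed here, the difference of NT_A486 from IVF was 0.80 on the log2 scale (SE 0.32, adjusted p 0.0895) and was not called.

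**Figure D4:**
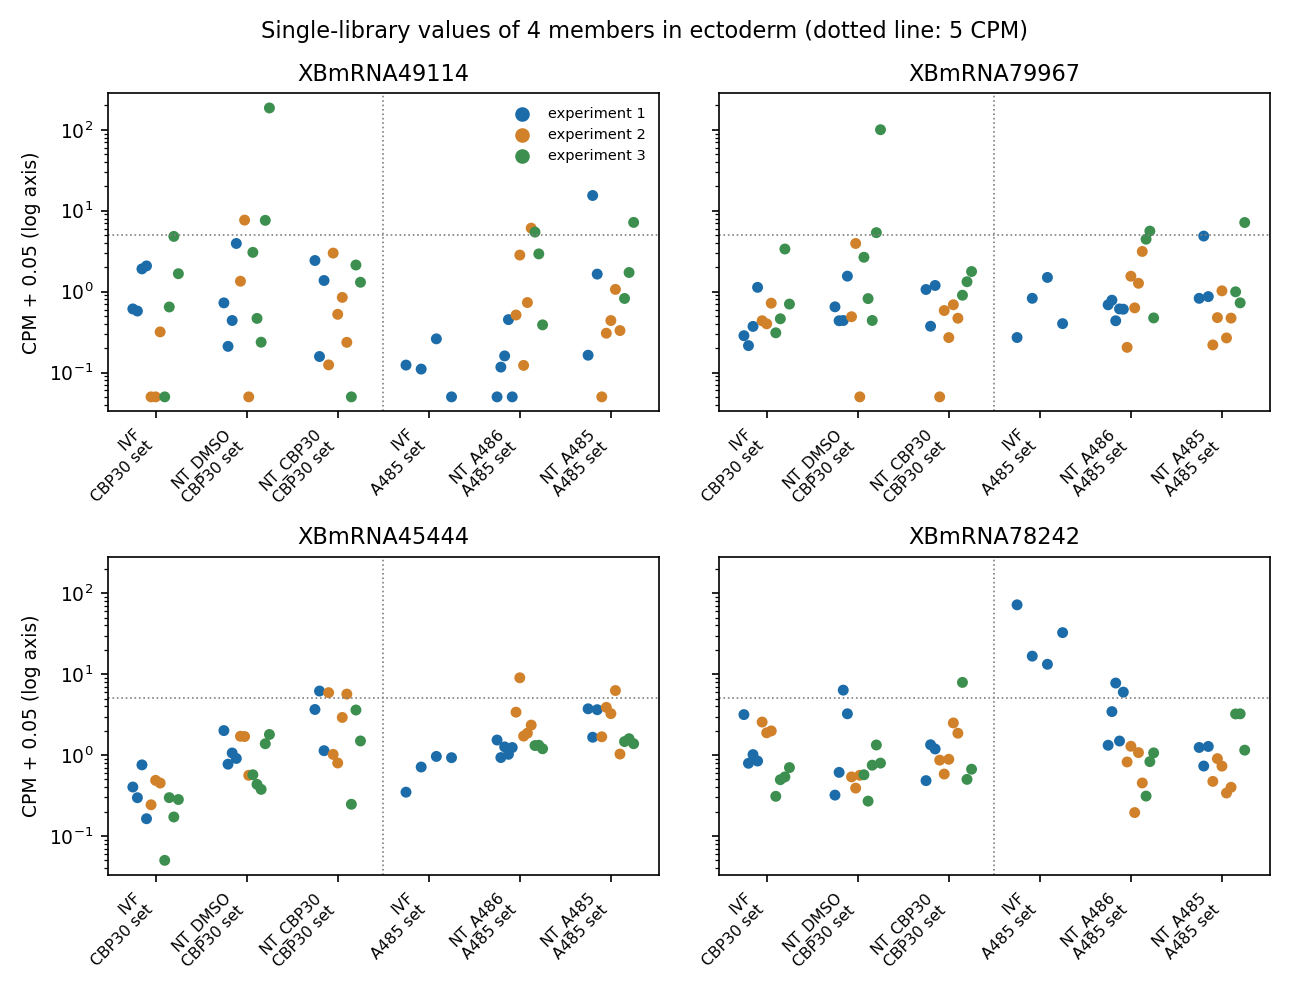
CPM with 0.05 added (log axis) of 4 members in every ectoderm library, by group, with colours for the experiment and a dotted line at 5 CPM. XBmRNA49114 and XBmRNA79967 are highest in NT_DMSO library 3.5 and are above 5 CPM in single NT libraries of both sets; XBmRNA45444 is spread over many NT libraries; XBmRNA78242 is above 13 CPM in all 4 IVF libraries of the A485 set.

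A few members were higher in fertilised than in nuclear-transfer ectoderm. In experiment 1 of the A485 set, 32 members were tested between 5 NT_A486 and 4 IVF libraries. Of these, 9 were called lower in NT_A486, beside 13.5% of 20627 targets, and 2 were called higher, beside 14.8%. Some members passed the filter on low counts through the IVF libraries, where they were high. XBmRNA10519, for example, was at 1.32 to 9.13 CPM in IVF and under 1 CPM in NT_A486 of experiment 1. Nothing is therefore read from the number called lower. The 9 became 4 without NT_A486 library 1.2 or without library 1.4, 5 without IVF library 1.4, and 6 without IVF library 1.1 or NT_A486 library 1.1 or 1.3. Over all targets the number called lower changed too. It went from 2793 to 2129 without NT_A486 library 1.2, to 2083 without library 1.4 and to 2915 without IVF library 1.4. The members tested in these fits numbered 28, 31 and 36, so nothing is read from the falls. XBmRNA72475 had the smallest adjusted p among the lower ones. It was at 16.7, 14.8, 9.45 and 21.6 CPM in IVF and at 1.03 to 2.34 CPM in NT_A486 of experiment 1, with no overlap (log2 fold change -3.27, SE 0.30, adjusted p 0.000177). XBmRNA34702 had the smallest adjusted p among the higher ones, at 1.04 to 2.11 CPM in NT_A486 of experiment 1 and at 0.294 to 1.18 CPM in IVF. The groups overlapped by 1 library each, and the log2 difference was 1.57 (SE 0.38, adjusted p 0.0141). XBmRNA78242, the member with the highest single IVF value, was at 72.0, 16.7, 13.2 and 32.6 CPM in IVF. It was at 1.27 to 7.73 CPM in NT_A486 of experiment 1 (log2 fold change -3.03, SE 0.67, adjusted p 0.0092). In the CBP30 set, where the rule set its median, it was at 3.12 CPM at most in IVF, but at 6.31 CPM in NT_DMSO library 1.3 and at 7.87 CPM in NT_CBP30 library 3.1.

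The members were not uniform in the donors. Of the 200, 182 were at or above 1 CPM in all 11 donor libraries of the CBP30 set, 82 were at or above 20 CPM in all 11, and 18 were under 1 CPM in at least 1. A group of 7 members was switched between donor libraries: at least 20 CPM in Donor_DMSO libraries 1.1, 1.2 and 3.2, and there at least 5 times the highest of the other 8 donors. XBmRNA57461, the most abundant of them, was at 1595.9, 752.4 and 640.2 CPM in those 3 libraries. It was at 0.106 to 0.135 CPM in the other 3 Donor_DMSO libraries and at 0 to 10.4 CPM in Donor_CBP30. No member showed the opposite pattern, but its number over all targets is not given here, so nothing is read from that. Among all 70042 messenger RNA targets, 114 showed the pattern of the 7. Only 6853 of them reached the donor limit that all members had to reach, so the 7 and the 114 are not compared as shares. The pattern and its limits were chosen after the values were seen. The 3 libraries come from 2 experiments, and library 3.2 differs from 3.1 of the same experiment and treatment. Library 3.1 of Donor_CBP30 had 16 members under 1 CPM, the most of the 11 donors, where the others had 0 to 7. All 7 switched members are among the 16, and the numbers of the other donors count switched members too.

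The A485 set lists 4 of these 7 members, and there library 3.1 of Donor_A486 was the highest donor for all 4. XBmRNA56259 was at 244.8 CPM in that library and at 4.17 to 9.11 CPM in the other 11 donors. XBmRNA82921 was at 57.8 CPM there and at 1.09 to 9.85 CPM in the other 11. XBmRNA36753 was at 13.0 CPM there and at 0.67 CPM at most in the other 11. XBmRNA24510 hardly stood apart, at 6.69 CPM there against 6.23 CPM in Donor_A486 library 1.1. XBmRNA82921 also gave the highest single member value in NT_CBP30, 12.39 CPM in library 3.1, and was at 4.29 to 17.8 CPM in the IVF libraries of the A485 set. For such members the donor median lies between 3 high and 3 low libraries, and is a level that no Donor_DMSO library had.

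**Figure D5:**
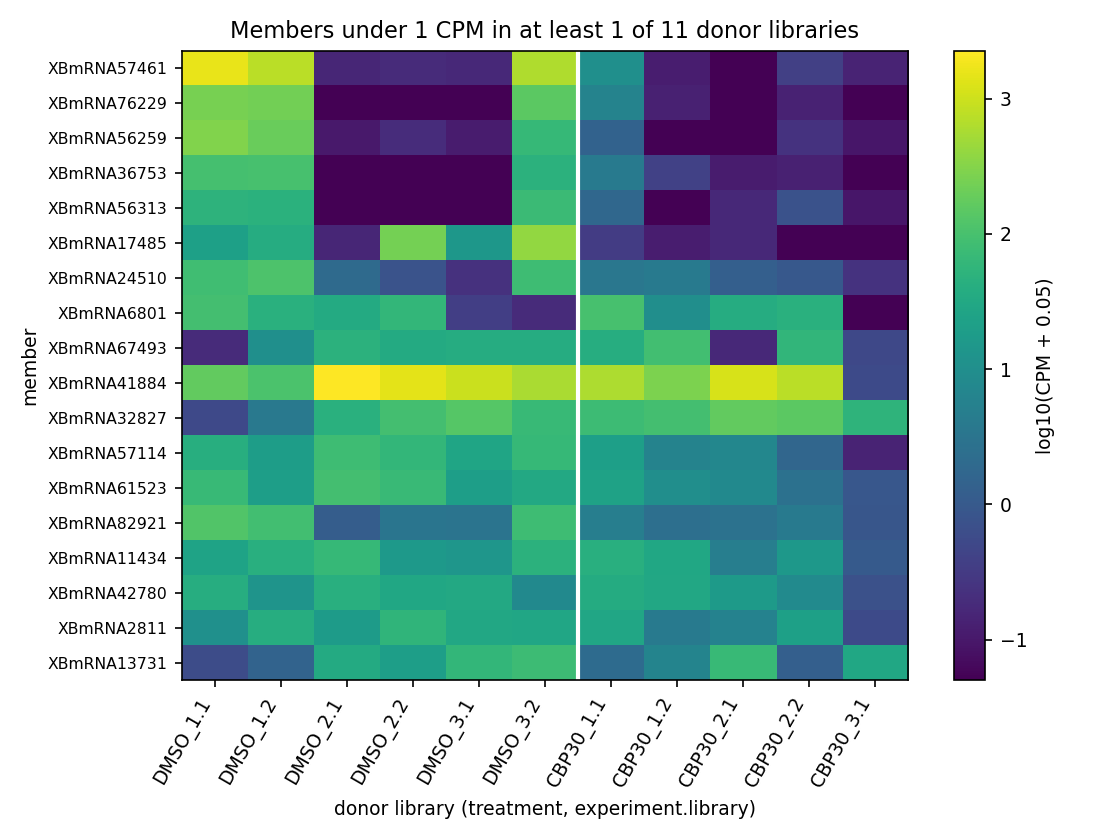
Heat map of log10 CPM, with 0.05 CPM added, for the 18 members under 1 CPM in at least 1 of 11 donor libraries (rows) across the 6 Donor_DMSO and 5 Donor_CBP30 libraries (columns, written as treatment and experiment.library). The bright cells of the upper rows in DMSO 1.1, 1.2 and 3.2 are switched members, except for XBmRNA17485, which is also bright in DMSO 2.2. The switched XBmRNA82921 lies among the lower rows. CBP30 3.1 is dark in most of the lower rows.

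In fits over all experiments, no member was called different between inhibitor-treated and control donors by edgeR, but the libraries of experiment 1 differed from the others. The rule used the Donor_DMSO levels, so this comparison is a description. Of 196 members tested between Donor_CBP30 and Donor_DMSO, 0 were called by edgeR, beside 0.0% of 23544 targets, with 22 at an unadjusted p under 0.05. DESeq2 called 7, beside 2.17% of the same targets, with 28 at an unadjusted p under 0.05. With the experiment as a block, which pairs these donor groups, edgeR called 0 members and 0 of all 23544 targets. That fit gave 64 of the 196 members at an unadjusted p under 0.05 and a median member log2 fold change of 0.43. Without the block, the median log2 fold change of the members was 0.25 over all experiments. It was 1.4 within experiment 1 and -0.10 within experiment 2. Experiment 3 has 1 Donor_CBP30 library and gave no value of its own. Within experiment 1 edgeR called 36 of 200 members, of which 32 were higher in Donor_CBP30, beside 0.506% of 24716 targets, and 4 were lower, beside 1.78%. The low member sums of the 2 Donor_DMSO libraries of that experiment, 15487 and 10572 CPM, stand beside 28500 and 26503 CPM in its Donor_CBP30 libraries. Between Donor_A485 and Donor_A486, 0 of 120 members were called by edgeR, beside 0.0% of 20220 targets, with 10 at an unadjusted p under 0.05, and DESeq2 called 0, with 13.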

How the data were processed

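Each library had a deposited abundance table, made with kallisto 0.48, per the submitters' processing notes, which also name R 4.3.1 and DESeq2 1.40.2. The deposited expected counts (estimated reads per target) gave CPM, with each library's own sum as the total, and were rounded to whole numbers for all tests. The deposited TPM values were used for levels per length, and the deposited target lengths, an other kind of value, to match the sets. The genome build is not given in the sources used here.

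The tests were two-sided quasi-likelihood tests of edgeR 4.0.16 (R 4.3.3) on targets kept by filterByExpr and scaled by TMM. P-values were adjusted by Benjamini and Hochberg over all targets tested, and 0.05 was the threshold. Counts at an unadjusted p under 0.05 cover the members only, without the share over all targets, so nothing is read from them. A standard error is the log2 difference divided by the square root of its F. Each of the 8 comparisons used only its own groups. DESeq2 1.42.0 was an alternative. The edgeR steps were tested on data simulated for NT_CBP30 against NT_DMSO only, with changes set in targets of a mean above 5 CPM. The members had NT_DMSO medians under 1 CPM, so that test says little about levels as low as theirs. The other comparisons and DESeq2 were not simulated. The members and lists were chosen with earlier results of these data known. Transcripts were named by rule: highest donor level, most libraries at 5 CPM per NT group, highest IVF value, smallest adjusted p per direction, and the edge of the list. XBmRNA57461 was named after its values were seen.

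Groups came from sample titles. The tissue field of 2 A485 libraries (Donor_A485 3.1 and NT_A485 3.1) contradicts the title, and the A485-set donors of experiment 1 have a cell type field of ectoderm. A further 8 IVF samples of the A485 set (experiments 2 and 3) and 22 somite samples are not analysed here, and 4 files tied to no sample were not used here. Experiment numbers were checked for pairing by the deviation of each experiment's mean log CPM from the mean over its group's experiments. For each experiment these deviations were correlated across targets between the groups of a comparison. The correlation was 0.281 to 0.768 between NT groups and between donor groups, and -0.084 to 0.042 between donors and NT.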

Additional observations from a re-analysis of the deposited data

Results flagged for a closer look

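Among 72 checks of a group's highest and lowest library, 6 stood apart from their group by Dixon's criterion, and chance flags about 1 in 20 groups. The member sum in Donor_CBP30 was lowest in library 3.1, at 15592 CPM, against 26503 CPM or more in the other 4. XBmRNA56259 stood apart 3 times: at 1.42 CPM in Donor_CBP30 library 1.1, at 244.8 CPM in Donor_A486 library 3.1 and at 67.9 CPM in IVF library 1.1 of the A485 set. XBmRNA82921 stood apart at 57.8 CPM in the same Donor_A486 library 3.1. XBmRNA79967 stood apart at 288.8 CPM in Donor_A486 library 2.2. All 6 were in donor groups or in IVF of the A485 set. Library 3.5 of NT_DMSO is not among them, although its member sum was 1186 CPM against 53.8 to 122.4 CPM in the other 11. Its absence here therefore does not mean that it lay within its group.

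For 4 named members, libraries of one experiment moved wholly one way and those of another wholly the opposite way, and this difference was not tested. Donor_CBP30 against Donor_DMSO could be compared in 2 experiments. XBmRNA64125 was higher with CBP30 in experiment 1 (1022.5 and 893.6 against 398.2 and 334.6 CPM) and lower in experiment 2 (647.2 and 916.9 against 1145.5 and 981.9 CPM). XBmRNA49114 did the same, with 78.0 and 48.8 against 31.5 and 19.0 CPM in experiment 1 and 85.7 and 70.0 against 102.4 and 107.9 CPM in experiment 2. XBmRNA56313 was lower in experiment 1 (1.72 and 0 against 51.9 and 46.8 CPM), while in experiment 2 its values of 0.125 and 0.71 against 0 CPM are near the counting limit. NT_A485 against NT_A486 could be compared in 3 experiments: XBmRNA78242 was at 0.683 to 1.23 against 1.27 to 7.73 CPM in experiment 1 and at 1.1 to 3.19 against 0.262 to 1.02 CPM in experiment 3.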

How the results depend on the processing

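The limit of 5 CPM decides the leak counts. At 2 CPM the leaks numbered 37 in IVF, 97 in NT_DMSO and 41 in NT_CBP30 of the CBP30 set, and 55 in IVF, 117 in NT_A486 and 106 in NT_A485 of the A485 set. Leaky libraries then numbered 3 in NT_DMSO, 1 in NT_CBP30, 4 in IVF of the A485 set, 5 in NT_A486 and 5 in NT_A485. At 10 CPM the leaks were 0 in IVF, 24 in NT_DMSO and 1 in NT_CBP30, and 16 in IVF, 19 in NT_A486 and 20 in NT_A485 of the A485 set. Without library 3.5, NT_DMSO had 5 leaks and 0 leaky libraries. With all 230 targets that met the rule, the median sum in NT_CBP30 was 92.86 CPM, and 1 IVF library of the A485 set was leaky. Over the members at or above 1 CPM in all donors, IVF had 1 leak and the NT_A486 median sum was 70.99 CPM. Among the 15 members of equal length in both sets, 14 had a median under 1 CPM in each of IVF, NT_A486 and NT_A485, a lower count by construction.

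DESeq2 called 7 members between Donor_CBP30 and Donor_DMSO, and edgeR called 36 within experiment 1. Within experiment 2, edgeR called 1 of 21 members tested between NT_A485 and NT_A486, lower in NT_A485. Of all 20382 targets tested there, 45 were called lower and 56 higher. For NT_A486 against IVF, leaving out 1 library at a time gave 6 to 10 calls against 11, with 6 without NT_A486 library 1.2 or 1.4. Over all targets, 3047 were called higher and 2793 lower with every library. Those numbers were 2430 and 2129 without library 1.2, and 2357 and 2083 without library 1.4. The causes were not tested. With the replicate block, in which the experiment numbers pair the libraries, 0 members were called in NT_CBP30 against NT_DMSO, in Donor_CBP30 against Donor_DMSO and in NT_A485 against NT_A486. It gave 0 in Donor_A485 against Donor_A486, and in the comparisons of NT with donors, which share only a number, 192 against 191 for CBP30 and 118 for A486. Over all targets, the block gave 9271 lower in NT against 9084 for CBP30, and 8076 against 7806 for A486. For NT_A485 against NT_A486 it gave 13 higher and 22 lower over all targets. Of the recomputed counts and sums, 189 stayed within their margin and 30 moved. Of the recomputed fold changes of named members, 452 stayed on their side of the threshold, 9 lost their call (7 for XBmRNA82921 in NT_A486 against IVF, 2 for XBmRNA56259) and 0 turned. Values within one experiment, without library 3.5, over members of equal length and over members at 1 CPM in all donors were chosen after seeing the data. A sum per gene was not run, because the CBP30 set does not pair targets with genes. Depth limits values under 0.12 to 0.464 CPM, the size of 3 counts, and covers counting error only.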
